A study of Mus musculus with 12 samples.

Results

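The enzyme genes of glucose breakdown followed through all 12 lens RNA-seq libraries were the 10 genes *Hk1*, *Hk2*, *Pfkp*, *Aldoa*, *Gapdh*, *Pgk1*, *Pkm*, *Ldha*, *Ldhb* and *Pdk1*. They were taken from the full count table by gene symbol, as 10 genes among 55487 gene identifiers. The symbol *Aldoa* was carried by 2 identifiers, so the 10 genes had 11 entries. The second *Aldoa* entry held at most 18 counts in any library, no more than 0.105% of the first, and only the first was used. Lenses were collected at P7 (7 days of age) from 4 genotypes, with 3 libraries each, and every library was made from polyA RNA of 4 male and 4 female lenses pooled. All mice were kept on the B6J background. Mice of the genotype *Trpm3*-I/M were heterozygous, and those of the genotype *Trpm3*-M/M homozygous, for a knock-in, made by CRISPR/Cas9 editing, that replaces an isoleucine with a methionine in TRPM3, a calcium-permeable cation channel. *Trpm3*-KO mice carried a *Trpm3* gene disrupted by homologous recombination, and wild-type (WT) mice were the controls. The mutant genotypes are called I/M, M/M and KO below. Nothing in the labels says that the libraries of a genotype came from separate litters, so the p-values measure the spread between these pools.

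Glycolysis splits glucose into pyruvate in the cytosol and yields ATP without oxygen. Lens fiber cells lose their mitochondria as they mature and the lens has no blood supply of its own, so glycolysis is the main source of ATP for most of this tissue. Hexokinase traps glucose in the cell, phosphofructokinase commits it to the pathway, and aldolase, glyceraldehyde-3-phosphate dehydrogenase, phosphoglycerate kinase and pyruvate kinase carry it to pyruvate. Lactate dehydrogenase turns pyruvate into lactate, and pyruvate dehydrogenase kinase keeps pyruvate out of the mitochondrial citrate cycle. Many of these genes are textbook targets of hypoxia-inducible factors, which bind DNA at the core letters ACGTG or GCGTG.

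The bases upstream of 4 of these genes are shown because they differ in how often they hold those letters, and because 3 of the genes (*Ldha*, *Pgk1*, *Pdk1*) were higher in M/M lenses and *Hk2* was lower by TMM scaling but higher with library size only. Each is the stretch of 250 bases before an annotated transcription start, from RefSeq on build GRCm38.p6, written 5′ to 3′ on the strand of the gene. Capitals mark ACGTG or GCGTG on either strand (CACGT and CACGC on the strand shown), and the palindrome CACGTG counts once on each strand.
*Ldha* (chr7:46845554-46845803, plus strand): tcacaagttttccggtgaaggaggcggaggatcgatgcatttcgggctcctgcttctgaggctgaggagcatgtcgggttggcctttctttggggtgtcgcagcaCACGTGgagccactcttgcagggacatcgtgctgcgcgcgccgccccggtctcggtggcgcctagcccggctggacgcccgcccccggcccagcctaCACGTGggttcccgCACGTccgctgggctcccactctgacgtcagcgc
*Pgk1* (chrX:106186850-106187099, plus strand): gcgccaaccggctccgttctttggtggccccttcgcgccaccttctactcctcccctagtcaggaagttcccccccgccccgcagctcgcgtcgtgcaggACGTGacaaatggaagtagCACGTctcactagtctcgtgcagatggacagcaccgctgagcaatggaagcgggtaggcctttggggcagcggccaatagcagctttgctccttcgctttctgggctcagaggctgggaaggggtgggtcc
*Hk2* (chr6:82774455-82774704, minus strand): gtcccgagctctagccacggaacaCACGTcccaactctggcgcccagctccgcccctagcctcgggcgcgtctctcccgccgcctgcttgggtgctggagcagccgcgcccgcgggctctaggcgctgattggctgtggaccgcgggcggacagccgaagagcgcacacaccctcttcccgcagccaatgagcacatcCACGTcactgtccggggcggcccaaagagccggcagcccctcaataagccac
*Pdk1* (chr2:71872974-71873223, plus strand): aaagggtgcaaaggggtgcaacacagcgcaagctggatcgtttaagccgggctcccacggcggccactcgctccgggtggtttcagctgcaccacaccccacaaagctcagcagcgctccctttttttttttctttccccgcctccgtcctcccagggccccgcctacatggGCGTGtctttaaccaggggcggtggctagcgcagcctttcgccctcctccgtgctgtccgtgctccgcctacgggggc

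The *Ldha* stretch held ACGTG 5 times, including a CACGTG palindrome at each of 2 places. The *Pgk1* stretch held ACGTG 2 times, starting 150 and 131 bases before the start. *Hk2* also held it 2 times, starting 226 and 52 bases before the start. *Pdk1* held no ACGTG here and held GCGTG 1 time, 78 bases before its start. Over 300-base windows (250 bases before to 50 after a start), 7 of the 10 genes had ACGTG in at least 1 of their 16 promoters, and 21.8% of the 27025 genes in the RefSeq table did. All 10 genes had ACGTG or GCGTG in a promoter, compared with 46.7% of all genes. The 27025 genes had 32851 promoters, fewer per gene than the 10 genes, which gave the 10 more chances of a match. The genes compared were not matched for level or base composition. The 3 genes without ACGTG were *Pfkp*, *Ldhb* and *Pdk1*. A match is a description of the letters and shows no binding.

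The libraries held 56162182 to 82090262 total estimated counts. *Trpm3* was at 269 ± 17.3 CPM (read counts set relative to library size, scaled by TMM factors, which correct for library composition, as mean ± SD with n = 3) in wild-type lenses and at 95.3 ± 5.02 CPM in KO lenses. One library went against its description: in I/M replicate 3 the female-specific transcript *Xist* was at 0.0721 CPM and the sum of 4 Y-linked genes at 69.1 CPM, while the other 11 libraries ran from 45.8 to 305 CPM and from 21.6 to 50.6 CPM. For most genes described below, the I/M fold change from wild-type is given with and without it. Differences between M/M and I/M lenses include that library unless stated. The lens fiber markers were high in every library, with a summed level of 96090 to 109100 CPM in wild-type and 58660 to 60770 CPM in M/M lenses, where all 10 of them were lower. They summed to 82100 to 84220 CPM in I/M lenses, with 9 of 10 lower. The epithelial markers summed to 2174 to 2219 CPM in wild-type, 2381 to 2501 CPM in I/M and 1985 to 2055 CPM in M/M lenses. Taken singly, 3 of these 9 markers were higher and 6 lower in I/M, and 1 was higher and 6 lower in M/M lenses, by the test described below. These are bulk samples, so fewer cells of a type and less RNA per cell cannot be told apart. Markers of other cells moved with the same genotypes. The summed level of 7 vascular endothelium markers was 5.76 to 8.21 CPM in wild-type, 17.7 to 24.6 CPM in I/M and 47.6 to 55.4 CPM in M/M lenses. The 8 pericyte and fibroblast markers summed to 73.5 to 89.5, 97.0 to 123 and 262 to 396 CPM, and the 8 macrophage markers to 0.416 to 0.570, 0.998 to 1.03 and 8.69 to 16.4 CPM, in the same order. The 6 red blood cell markers summed to 1.22 to 11.9 CPM in wild-type and 12.4 to 15.0 CPM in M/M lenses, the 10 retina markers to at most 5.13 CPM and the 6 pigmented cell markers to at most 6.17 CPM in any library, with *Rpe65* at 0 in all. The part of these cells in the results below was not tested.

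The filter on low counts, which asked for 5 CPM or more, before TMM scaling, in 3 or more libraries, kept 9 of the 10 genes and left out *Ldhb*. *Pfkp* passed only through the M/M libraries, where it was high, so it had to differ and counts that include it are descriptions. At an adjusted p of at most 0.05 (the quasi-likelihood test of edgeR, Benjamini–Hochberg adjusted over 8984 genes, used throughout), 8 of the 9 were higher in M/M than in wild-type lenses and 1, *Hk2*, was lower. Over all genes tested, 31.4% were higher and 31.4% lower. With a fold change of at least 2 as well, 4 were higher (*Pfkp*, *Hk1*, *Pgk1* and *Aldoa*), against 6.42% of all genes. Without *Pfkp*, 7 of 8 were higher, 1 was lower and 3 passed the fold change threshold. The median log2 fold change of the 9 was 0.93, beside -0.004 for all genes tested. In I/M lenses 4 of the 9 were higher than in wild-type lenses, *Pfkp*, *Hk1*, *Pgk1* and *Aldoa*, against 17.3% of all genes, and 5 did not pass. One of them, *Pfkp*, passed 2-fold, against 2.58% of all genes. Without *Pfkp*, 3 of 8 were higher in I/M lenses and 0 passed 2-fold. The median of the 9 was 0.09 in I/M lenses. In KO lenses none of the 9 passed, beside 2.16% of all genes higher and 2.2% lower, shares too small for that count to stand out. Only *Pkm* had an unadjusted p under 0.05 there (0.0250), and DESeq2 called none of them either. Both mutant genotypes were compared with the same 3 wild-type libraries.

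**Figure D1:**
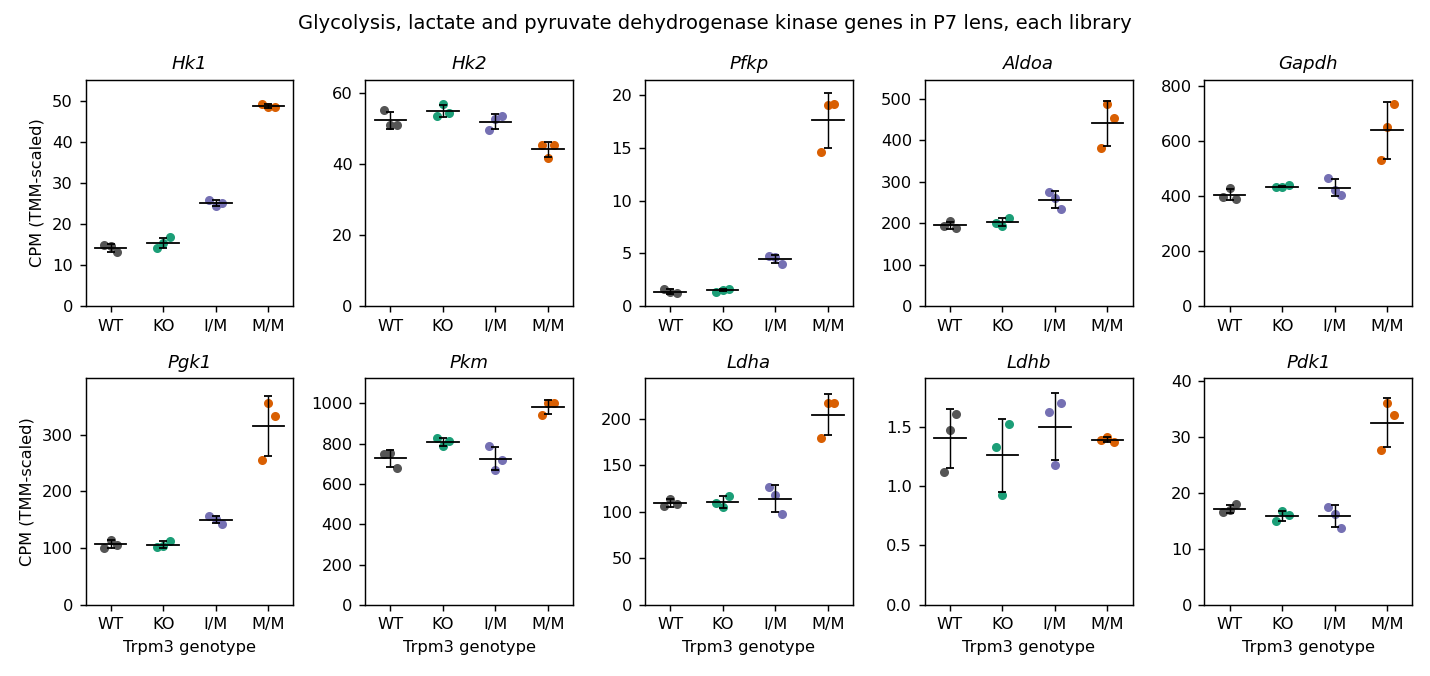
Level of each of the 10 genes in each library, as TMM-scaled CPM on axes that start at 0, by *Trpm3* genotype. Points are libraries, horizontal lines are means and bars are SD (n = 3). Of the 9 tested genes, 8 were called higher in M/M than in wild-type lenses and *Hk2* lower on this scale, and *Ldhb* was not tested. *Pfkp*, among the 8, passed the filter only through the M/M libraries. Of all genes tested, 31.4% were called higher and 31.4% lower in M/M lenses.

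The genotypes differed in library composition. The TMM factors were 0.828 to 0.905 in wild-type, 1.00 to 1.01 in I/M and 1.22 to 1.27 in M/M libraries. With library size alone, the median of all genes was 0.50 higher (log2) in M/M and 0.20 higher in I/M than in wild-type lenses. By that scaling 87.5% of all genes passed in M/M and 55.8% in I/M lenses, both directions together, beside 62.7% and 32.6% with TMM factors. All changes are therefore given relative to the typical gene. As a plain share of all reads, the 10 genes together took 0.143 ± 0.00431% in wild-type, 0.159 ± 0.00698% in KO, 0.179 ± 0.0118% in I/M and 0.341 ± 0.0384% in M/M libraries (mean ± SD, n = 3).

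*Hk1* and *Hk2* encode the first enzyme, hexokinase. *Hk1* (chr10:62268855-62379908, minus strand) encodes the form found in most tissues. It was at 14.8, 14.7 and 13.2 CPM in the wild-type libraries, at 14.3, 15.4 and 16.8 CPM in KO, at 25.9, 24.6 and 25.2 CPM in I/M and at 49.4, 48.6 and 48.7 CPM in M/M. The 3 I/M libraries lay above all wild-type and KO libraries and below all M/M libraries, while wild-type and KO overlapped. The fold change from wild-type was 1.77-fold in I/M (log2 0.83 ± 0.06 SE, adjusted p = 2.68e-07) and 3.43-fold in M/M (log2 1.78 ± 0.06, adjusted p = 3.83e-11). M/M exceeded I/M lenses by 0.95 ± 0.06 on the log2 scale (adjusted p = 2.82e-08). Without I/M replicate 3 the log2 fold change of I/M lenses was again 0.83.

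*Hk2* (chr6:82725025-82774454, minus strand) encodes a hexokinase known for its response to insulin and hypoxia. It was at 55.0, 50.8 and 50.9 CPM in wild-type, at 53.4, 56.8 and 54.2 CPM in KO, at 49.6, 52.5 and 53.5 CPM in I/M and at 45.2, 41.7 and 45.3 CPM in M/M libraries. All M/M libraries were below all others, by 1.19-fold from wild-type (log2 -0.25 ± 0.05, adjusted p = 0.00102), but with library size only the direction turned (log2 0.26, adjusted p = 0.0023). In I/M lenses the log2 fold change was -0.01 ± 0.05 (adjusted p = 0.904), and it turned too with library size only (0.19). Without I/M replicate 3 it was -0.03. The share of *Hk2* in the sum of both hexokinase transcripts, computed per kilobase within each library, does not depend on scaling. It was 84.1%, 83.2% and 84.6% in wild-type, 84.2%, 84.1% and 82.2% in KO, 73.2%, 75.3% and 75.2% in I/M and 56.7%, 55.1% and 57.1% in M/M libraries. Both mutant genotypes lay below wild-type with no overlap (difference of -9.40 and -27.7 percentage points), at the smallest p that an exact two-sided permutation test of 3 against 3 allows, 0.1.

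*Pfkp* (chr13:6579768-6648777, minus strand) encodes the platelet form of phosphofructokinase. It was at 1.63, 1.32 and 1.21 CPM in wild-type, 1.38, 1.57 and 1.61 CPM in KO, 4.8, 4.63 and 4.01 CPM in I/M and 14.6, 19.1 and 19.2 CPM in M/M libraries. It was the lowest of the 10 genes per kilobase in wild-type lenses, and the I/M and M/M groups overlapped neither wild-type nor each other, while KO overlapped wild-type. Its log2 fold change was 1.69 ± 0.15 in I/M (3.22-fold, adjusted p = 1.99e-06) and 3.67 ± 0.14 in M/M lenses (12.7-fold, adjusted p = 1.32e-10). A filter of CPM of at least 1, which *Pfkp* also passes in wild-type libraries, kept 12638 genes and gave 1.68 ± 0.15 (adjusted p = 1.21e-06) and 3.64 ± 0.14 (adjusted p = 6.5e-11). Without I/M replicate 3 the value in I/M lenses was 1.76.

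The other phosphofructokinase genes did not pass the test. *Pfkl*, the liver form and the major one here, was at 93.0 CPM in wild-type and 93.2 CPM in M/M lenses (log2 fold change 0.00 ± 0.06, adjusted p = 0.962). *Pfkm*, the muscle form, gave 0.04 ± 0.08 (adjusted p = 0.724). *Pfkp* made up 0.773%, 0.607% and 0.576% of the 3 transcripts per kilobase in wild-type, 2.22%, 2.18% and 1.99% in I/M and 6.98%, 7.78% and 8.15% in M/M libraries. It therefore remained a minor form in all of them. Both mutant groups lay apart from wild-type (exact permutation p = 0.1 each), while in KO the share was 0.711 ± 0.0629% (n = 3, exact permutation p = 0.5).

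*Aldoa* (chr7:126795234-126800751, minus strand) encodes aldolase A, which splits the 6-carbon sugar. It was at 193, 204 and 189 CPM in wild-type, 201, 194 and 213 CPM in KO, 275, 261 and 235 CPM in I/M and 382, 488 and 453 CPM in M/M libraries. The groups wild-type, I/M and M/M did not overlap. *Aldoa* rose 1.31-fold in I/M (log2 0.39 ± 0.08, adjusted p = 0.00238) and 2.26-fold in M/M lenses (log2 1.17 ± 0.08, adjusted p = 4.83e-08). Without I/M replicate 3, which was the lowest of its group, the former value was 0.46. *Aldoc*, the brain-type aldolase, went the other way, from 379 CPM in wild-type to 292 CPM in I/M (log2 -0.38 ± 0.06, adjusted p = 0.000164, and -0.34 without I/M replicate 3) and 228 CPM in M/M lenses (log2 -0.73 ± 0.06, adjusted p = 9.35e-08). The *Aldoa* share of the sum of *Aldoa* and *Aldoc* per kilobase was 36.8%, 36.2% and 36.8% in wild-type, 50.9%, 49.4% and 48.6% in I/M and 66.4%, 69.2% and 69.4% in M/M libraries. In KO it was 36.3 ± 1.26% (n = 3, exact permutation p = 0.8). The larger of these transcripts was thus *Aldoc* in wild-type and *Aldoa* in M/M libraries.

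**Figure D2:**
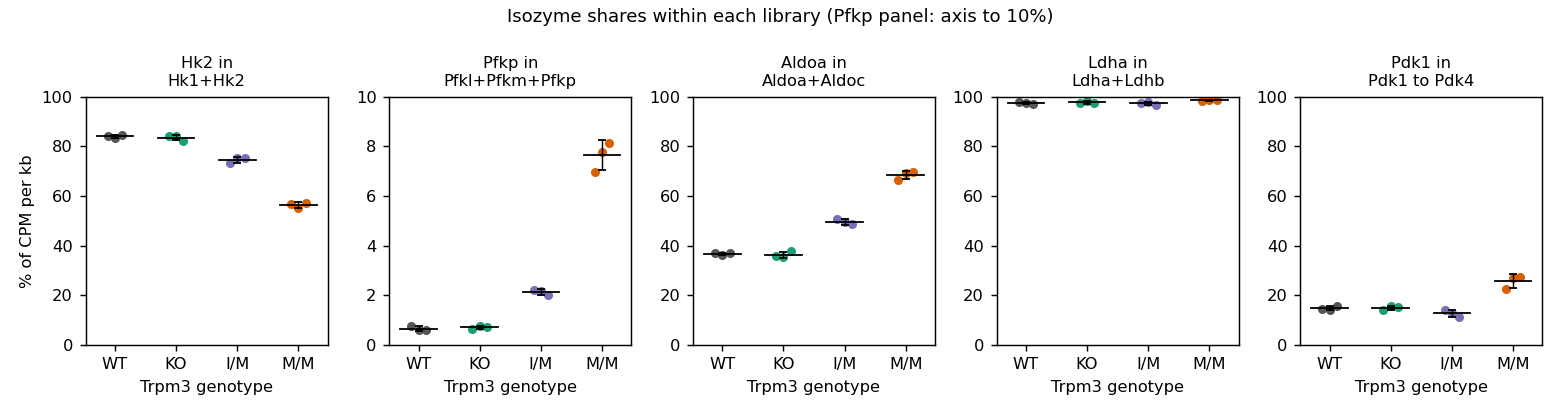
Share of each named gene in the summed level of its enzyme's genes, as a percentage of CPM per kilobase within each library, by genotype. Points are libraries, lines are means and bars SD (n = 3), and the *Pfkp* panel has an axis to 10%. *Hk2* falls from 84.0% in wild-type to 56.3% in M/M, *Aldoa* rises from 36.6% to 68.3%, and *Ldha* stays above 96% in all libraries.

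*Gapdh* (chr6:125161715-125166467, minus strand), the glyceraldehyde-3-phosphate dehydrogenase gene often used as a reference in expression assays, was at 396, 428 and 390 CPM in wild-type, 431, 433 and 438 CPM in KO, 464, 421 and 405 CPM in I/M and 530, 649 and 734 CPM in M/M libraries. Its spread was widest in M/M, yet that group did not overlap wild-type. *Gapdh* rose 1.58-fold in M/M (log2 0.66 ± 0.09, adjusted p = 3.61e-05), and the I/M group overlapped wild-type (log2 0.09 ± 0.09, adjusted p = 0.506, 0.13 without I/M replicate 3, and 0.29 with adjusted p = 0.0221 with library size only). All KO libraries were above all wild-type libraries, but the difference did not pass (log2 0.10 ± 0.09, adjusted p = 0.616).

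*Pgk1* (chrX:106187100-106203699, plus strand) encodes phosphoglycerate kinase, the first enzyme of the pathway to make ATP. It was at 100.8, 115 and 106 CPM in wild-type, 101.3, 105 and 113 CPM in KO, 157, 151 and 143 CPM in I/M and 256, 357 and 333 CPM in M/M libraries. The wild-type and KO groups overlapped, and I/M and M/M each stood apart. *Pgk1* rose 1.40-fold in I/M (log2 0.49 ± 0.10, adjusted p = 0.00208) and 2.94-fold in M/M lenses (log2 1.56 ± 0.10, adjusted p = 2.26e-08). Without I/M replicate 3 the former value was 0.52. A retrocopy annotated as *Pgk1-rs7* held up to 6438 counts, as much as 22.5% of the *Pgk1* count of the same library, and changed alongside it (log2 0.43 ± 0.13 in I/M and 1.61 ± 0.13 in M/M lenses). Reads of such near-identical copies can be split between them, so the level of *Pgk1* is uncertain to that extent. Adding the retrocopies to *Pgk1* gave log2 fold changes of 0.48 and 1.56. Of the other 13 retrocopy entries of these genes, *Ldhb-ps* reached 9.28% of its parent, with at most 9 counts, and the rest stayed under 1%.

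*Pkm* (chr9:59656368-59679375, plus strand), the pyruvate kinase gene, had the highest level per kilobase of the 10 genes in every genotype. It was at 747, 755 and 679 CPM in wild-type, 826, 787 and 816 CPM in KO, 786, 671 and 721 CPM in I/M and 944, 1004 and 1003 CPM in M/M libraries. All M/M libraries were above all others, a 1.35-fold rise from wild-type (log2 0.44 ± 0.06, adjusted p = 3.43e-05). I/M overlapped wild-type (log2 0.00 ± 0.06, adjusted p = 0.982, and 0.00 without I/M replicate 3), although with library size only it was higher (0.20, adjusted p = 0.0195). KO libraries were above all wild-type libraries without passing the test (log2 0.16 ± 0.06, adjusted p = 0.194). Counts per gene cannot separate the M1 and M2 splice forms of pyruvate kinase.

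*Ldha* (chr7:46841475-46855627, plus strand) encodes the lactate dehydrogenase subunit that favors lactate production. It was at 106, 114 and 108 CPM in wild-type, 109, 105 and 117 CPM in KO, 127, 118 and 97.9 CPM in I/M and 179, 217 and 217 CPM in M/M libraries. The M/M group stood apart, 1.87-fold above wild-type (log2 0.90 ± 0.09, adjusted p = 1.93e-06). The I/M libraries lay on both sides of the wild-type range, with replicate 3 the lowest (log2 0.06 ± 0.09, adjusted p = 0.639, 0.16 with adjusted p = 0.173 without that library, and 0.27 with adjusted p = 0.0344 with library size only). *Ldhb* (chr6:142490249-142507957, minus strand), the heart-type subunit, stayed between 0.922 and 1.70 CPM in all 12 libraries. With the filter of CPM of at least 1 its log2 fold change was -0.03 ± 0.20 in M/M (adjusted p = 0.894), 0.09 ± 0.20 in I/M (adjusted p = 0.773) and -0.16 ± 0.21 in KO lenses (adjusted p = 0.777). These errors are wider than those of the other genes. *Ldha* made up 97.4 ± 0.426% of both subunits per kilobase in wild-type and 98.6 ± 0.163% in M/M libraries (n = 3, exact permutation p = 0.1, no overlap), and in I/M it was 97.3 ± 0.740% (n = 3, exact permutation p = 1).

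*Pdk1* (chr2:71873224-71903858, plus strand) encodes a pyruvate dehydrogenase kinase. It was at 16.5, 16.9 and 18.0 CPM in wild-type, 14.9, 16.7 and 16.0 CPM in KO, 17.5, 16.3 and 13.7 CPM in I/M and 27.7, 36.1 and 33.9 CPM in M/M libraries. Only M/M stood apart from wild-type, 1.90-fold higher (log2 0.93 ± 0.10, adjusted p = 2.81e-06). The log2 fold change was -0.11 ± 0.10 in both I/M (adjusted p = 0.447) and KO lenses (adjusted p = 0.64). For I/M it was -0.02 without I/M replicate 3 and turned to 0.09 with library size only. The related kinases differed in direction. *Pdk3* rose from 5.94 CPM in wild-type to 8.75 CPM in I/M (log2 0.56 ± 0.06, adjusted p = 1.72e-05, and 0.54 without I/M replicate 3) and 13.6 CPM in M/M lenses (log2 1.20 ± 0.06, adjusted p = 2.22e-09). *Pdk2* was lower in M/M lenses, at 21.3 CPM against 32.9 CPM (log2 -0.62 ± 0.05, adjusted p = 2.37e-07, and -0.11 with adjusted p = 0.0504 with library size only). *Pdk4* stayed below 0.31 CPM. The share of *Pdk1* among the 4 kinases per kilobase was 14.4%, 14.2% and 15.7% in wild-type, 14.0%, 13.0% and 11.3% in I/M and 22.5%, 26.96% and 27.4% in M/M libraries. It was thus lower in I/M and higher in M/M than in wild-type, each without overlap (exact permutation p = 0.1). Without I/M replicate 3 the I/M shares differed from wild-type by -9.70 (*Hk2*), 1.55 (*Pfkp*), 13.5 (*Aldoa*), 0.282 (*Ldha*) and -1.25 (*Pdk1*) percentage points. The last then had an exact permutation p of 0.2, and that of *Ldha* turned from -0.115.

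**Figure D3:**
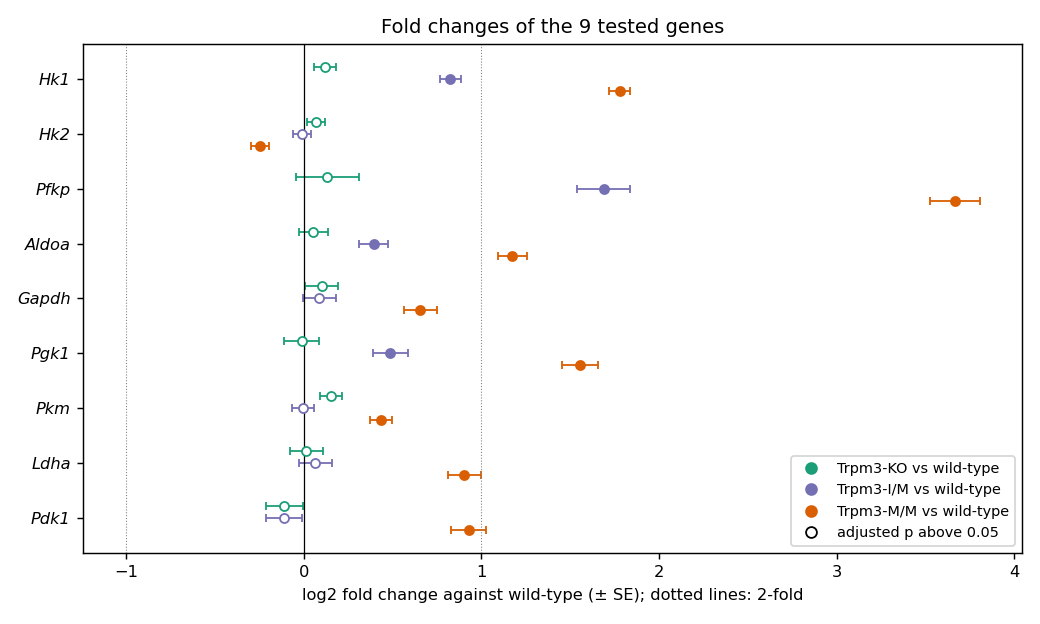
Log2 fold change against wild-type with its SE for the 9 tested genes, for KO, I/M and M/M lenses. Filled points have an adjusted p of at most 0.05 and dotted lines mark 2-fold. All KO points are open and lie between -0.11 and 0.16, and the M/M points run from -0.25 (*Hk2*, which turns positive with library size only) to 3.67 (*Pfkp*).

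The comparison of homozygous with heterozygous lenses asked how far the second mutant allele went with the changes. Between M/M and I/M lenses 8 of the 9 genes were higher in M/M, against 25.6% of all genes, and *Hk2* was lower (log2 -0.24 ± 0.05, adjusted p = 0.00191, and 0.07 with library size only), against 25.7%. Without *Pfkp*, which passed the filter only through the M/M libraries, 7 of 8 were higher and 2 of them passed 2-fold. *Pfkp* (log2 1.98 ± 0.11), *Pgk1* (1.07 ± 0.10) and *Pdk1* (1.04 ± 0.10) passed 2-fold, against 3.67% of all genes. The latter 2 are near the threshold: without M/M replicate 2 they were at 0.99 and 0.98 and *Pfkp* was not tested, which left none past 2-fold, and without I/M replicate 3 *Pdk1* was at 0.95. The 4 genes higher in I/M than in wild-type lenses were thus higher again in M/M lenses, and *Gapdh*, *Pkm*, *Ldha* and *Pdk1* passed only in the comparisons of M/M lenses, where their difference from I/M was itself tested (log2 0.57, 0.44, 0.84 and 1.04, adjusted p of 0.000213, 6.1e-05, 8.2e-06 and 1.97e-06). Within the M/M group, replicate 1 was the lowest for 7 of the 10 genes. That library also had the lowest summed levels of pericyte and fibroblast markers (262 CPM, against 396 and 325 CPM) and of macrophage markers (8.69 CPM, against 16.4 and 9.78 CPM). Its endothelium (47.57 CPM, against 48.45 and 55.4 CPM) and pigmented cell sums were lowest too. Its retina (5.13 CPM, against 1.80 and 3.66 CPM) and lens fiber sums (60770 CPM, against 59450 and 58660 CPM) were the highest. The red blood cell and epithelial sums lay between those of the other libraries. Whether these cells had a part in the levels was not tested. Without that library, *Ldha* (log2 1.02) and *Pdk1* (1.06) passed 2-fold from wild-type beside *Hk1*, *Pgk1* and *Aldoa*, and *Pfkp* was no longer tested. The share of all genes past 2-fold in that setting is not given.

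Set per kilobase of merged exon length, the order of the genes in wild-type lenses was *Pkm* (145 CPM per kilobase), *Gapdh* (97.9), *Aldoa* (67.1), *Pgk1* (47.8), *Ldha* (33.0), *Hk2* (8.75), *Pdk1* (2.202), *Hk1* (1.67), *Ldhb* (0.891) and *Pfkp* (0.104). No neighbors in that order overlapped between their 3 libraries. In KO lenses the order was the same, with overlap between *Pdk1* and *Hk1*. *Hk1* (2.96) moved above *Pdk1* (2.04) in I/M lenses. In M/M lenses *Gapdh* (154), *Aldoa* (152) and *Pgk1* (140) overlapped their neighbors, and *Pfkp* (1.32) lay above *Ldhb* (0.884). The levels thus ranged over 3 orders of magnitude. The largest fold belonged to *Pfkp*, the lowest of them per kilobase in wild-type lenses, which the filter kept only through its high M/M libraries. As the filter left out *Ldhb*, which was also low, no link between level and fold is drawn.

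The other genes of the pathway came from lists of general knowledge. Of the 11 tested genes among 18 other glycolytic enzymes, 7 were higher, 2 (*Aldoc* and *Pgam2*) were lower and 2 did not pass in M/M lenses, with a median log2 fold change of 0.36 (with library size only 9 were higher and 2 lower), beside 31.4% of all genes in each direction. One of the 7, the enolase gene *Eno2*, passed the filter only through the M/M libraries, and without it 6 of 10 were higher and 2 lower, with a median of 0.35. One was higher by 2-fold, *Gpi1*, which encodes the isomerase after hexokinase (88.4 to 195 CPM, log2 1.14 ± 0.05, adjusted p = 9.73e-10). One was lower by 2-fold, against 2.53% of all genes: *Pgam2*, the muscle form of phosphoglycerate mutase, at 535, 591 and 520 CPM in wild-type and 247, 228 and 198 CPM in M/M libraries (log2 -1.29 ± 0.08, adjusted p = 1.02e-08), though with library size only it was below 2-fold (-0.78). *Pgam2* was also lower by 2-fold than in I/M lenses (log2 -1.19 ± 0.08, against 1.02% of all genes, and -0.88 with library size only). It alone of the 11 passed in KO lenses, where it was higher (848, 793 and 764 CPM, log2 0.55 ± 0.08, adjusted p = 0.000684), beside 2.16% of all genes higher and 2.2% lower. In I/M lenses 4 of the 11 were higher and 2 lower (5 and 2 without I/M replicate 3), against 17.3% and 15.3% of all genes. Without *Eno2*, 4 of 10 were higher and 1 lower in I/M lenses. Between *Hk1*, *Gpi1*, *Aldoa*, *Pgk1* and the end of the pathway stand *Tpi1*, the triosephosphate isomerase gene, and *Pgam1*, another phosphoglycerate mutase gene. Both are named here after their values were seen. Their log2 fold changes in M/M lenses were 0.80 ± 0.06 (adjusted p = 1.25e-07) and 0.92 ± 0.06 (adjusted p = 4.3e-08). Per kilobase, *Pgam1* stayed below *Pgam2*, at 67.3 against 653 CPM in wild-type and 127 against 267 CPM in M/M lenses.

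**Figure D4:**
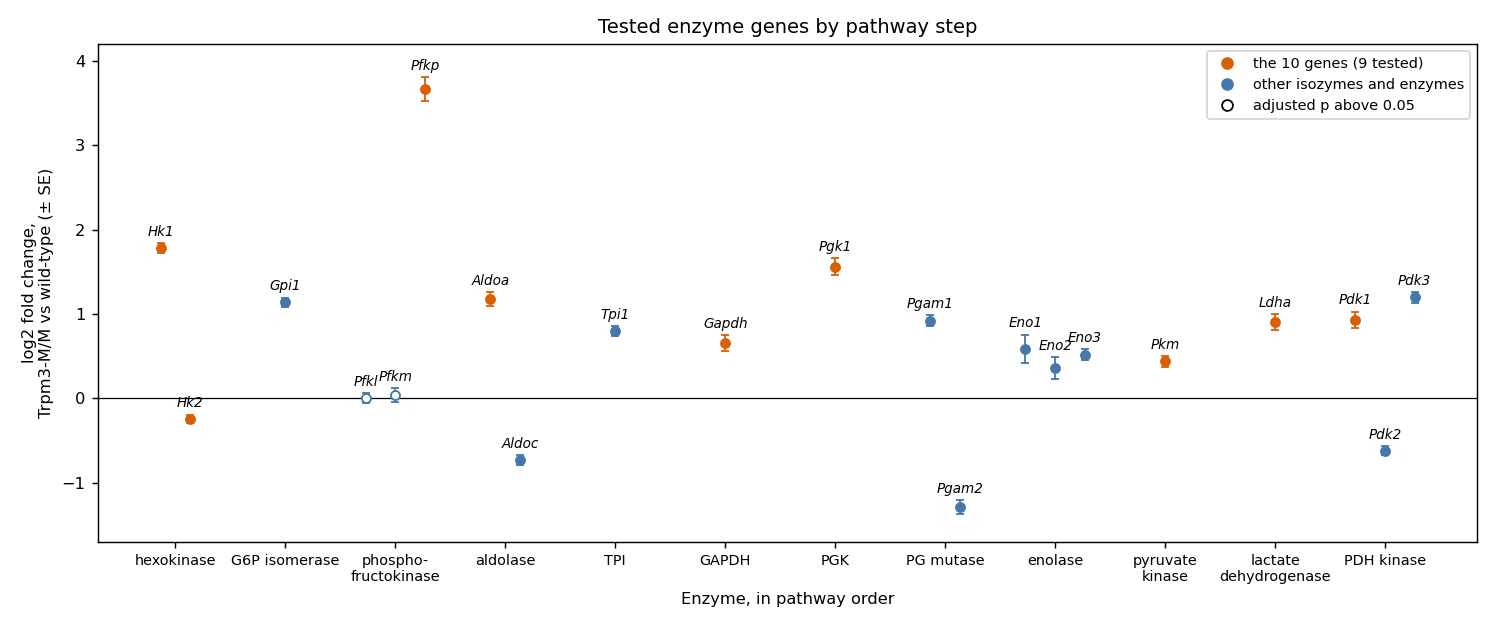
Log2 fold change with its SE between M/M and wild-type lenses for tested enzyme genes, in pathway order. Orange points are 9 of the 10 genes, blue points are other genes of the same or neighboring steps, and open points did not pass. At the hexokinase, aldolase, mutase and kinase steps, genes for the same step moved in opposite directions after TMM scaling, and *Hk2* turns with library size only.

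The lists around the pathway are given with the same shares of all genes beside them. Of 12 tested genes that control phosphofructokinase or pyruvate dehydrogenase, 5 were higher, 1 was lower and 6 did not pass in M/M lenses (median 0.08), beside 31.4% of all genes in each direction, and *Pdk3* alone passed 2-fold. In I/M lenses 4 of them were higher and 1 was lower, also without I/M replicate 3, beside 17.3% and 15.3% of all genes, and in KO lenses only *Mpc1*, a mitochondrial pyruvate carrier gene, was higher (log2 0.27 ± 0.07, adjusted p = 0.0387). The 1 lower in I/M lenses, *Pdpr*, passed the filter only through the M/M libraries. Without *Pdpr*, 5 of 11 were higher and 1 lower in M/M lenses, and 4 were higher and 0 lower in I/M lenses. With library size only 11 of these 12 were higher in M/M lenses, beside 87.5% of all genes passing in either direction. Of 6 tested transporter genes, 4 were higher and 1 lower in M/M lenses (median 0.58), beside 31.4% of all genes each way. With library size only 5 were higher and 0 lower, beside 87.5% of all genes passing in either direction. For I/M lenses 3 were higher and 1 lower, also without I/M replicate 3, beside 17.3% and 15.3%. In KO lenses none passed, beside 2.16% of all genes higher and 2.2% lower. *Slc16a3*, which encodes the lactate exporter MCT4, rose from 17.1, 18.4 and 14.5 CPM in wild-type to 27.1, 25.4 and 22.2 CPM in I/M and 33.6, 39.4 and 42.9 CPM in M/M libraries (log2 0.58 ± 0.11 and 1.22 ± 0.11, adjusted p = 0.00113 and 4.25e-07, and 0.66 in I/M without replicate 3). *Slc16a1*, which encodes the related carrier MCT1, fell from 11.9, 11.45 and 13.1 CPM to 5.73, 4.24 and 4.53 CPM in I/M libraries, past 2-fold (log2 -1.33 ± 0.11, adjusted p = 9.44e-07, against 0.746% of all genes, and -1.29 without I/M replicate 3), and was at 7.15, 8.37 and 7.21 CPM in M/M libraries (log2 -0.68 ± 0.10, adjusted p = 7.48e-05, and -0.17 with adjusted p = 0.182 with library size only). *Slc2a8*, a glucose transporter of internal membranes, was 1.22 ± 0.09 higher on the log2 scale in M/M lenses (adjusted p = 5.35e-08). *Slc2a1*, which encodes the transporter GLUT1 and was by level the main glucose transporter tested, did not pass (263 to 245 CPM, log2 -0.11 ± 0.07, adjusted p = 0.177), but turned and passed with library size only (0.40, adjusted p = 0.000168), and it too was named after its values were seen.

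Of 21 tested hypoxia-inducible factor genes and responsive genes, 14 were higher, 4 lower and 3 did not pass in M/M lenses. Their median was 0.39, and 31.4% of all genes were called in each direction. With library size only 19 were higher and 1 lower, beside 87.5% of all genes passing in either direction. *Epas1* and *Car9* passed the filter only through the M/M libraries, where they were high, and without them 12 of 19 were higher and 4 lower (median 0.36). In I/M lenses 5 of the 21 were higher and 2 lower (6 and 3 without I/M replicate 3), beside 17.3% and 15.3% of all genes. Without *Epas1* and *Car9*, 4 of 19 were higher and 2 lower in I/M lenses. In KO lenses 1 was higher, beside 2.16% of all genes. It was *Ndrg1*, a stress-response gene (742 to 1185 CPM, log2 0.68 ± 0.10, adjusted p = 0.00139), which was lower in M/M lenses (373 CPM, log2 -0.99 ± 0.10, adjusted p = 2.07e-06, and -0.49 with library size only). *Vhl*, whose product marks these factors for breakdown, was also lower in M/M lenses (11.4 to 7.29 CPM, log2 -0.65 ± 0.07, adjusted p = 5.06e-06, and -0.14 with adjusted p = 0.161 with library size only). The M/M values of *Ndrg1* and *Vhl* are named after they were seen. Of the 14 higher genes, 4 passed 2-fold in M/M lenses, and 2 of the 12 without *Epas1* and *Car9*, beside 6.42% of all genes. *Epas1*, which encodes the factor HIF-2α and is abundant in endothelium, was at 0.393, 0.210 and 0.555 CPM in wild-type, 1.79, 4.18 and 4.57 CPM in I/M and 16.8, 16.2 and 18.3 CPM in M/M libraries (log2 3.17 ± 0.39 in I/M, adjusted p = 3.62e-05, 2.95 without I/M replicate 3, and 5.45 ± 0.34 in M/M lenses). *Car9*, a carbonic anhydrase gene, was at 0.531, 0.462 and 0.575 CPM in wild-type and 6.56, 12.03 and 8.34 CPM in M/M libraries (log2 4.10 ± 0.35). With the filter of 1 CPM their M/M values were 5.43 and 4.07. *Egln3*, a prolyl hydroxylase gene that limits these factors, rose by 1.15 ± 0.17 in I/M (adjusted p = 0.000217, and 1.22 without I/M replicate 3) and 1.70 ± 0.17 in M/M lenses (adjusted p = 1.43e-06). *Bnip3*, a mitophagy gene, rose by 1.67 ± 0.13 in M/M lenses (adjusted p = 1.52e-07). *Hif1a*, named after its values were seen, was -0.31 ± 0.05 in M/M lenses (adjusted p = 0.000213), 0.20 with library size only. The endothelial markers given above moved with *Epas1*, and their part in it was not tested.

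**Figure D5:**
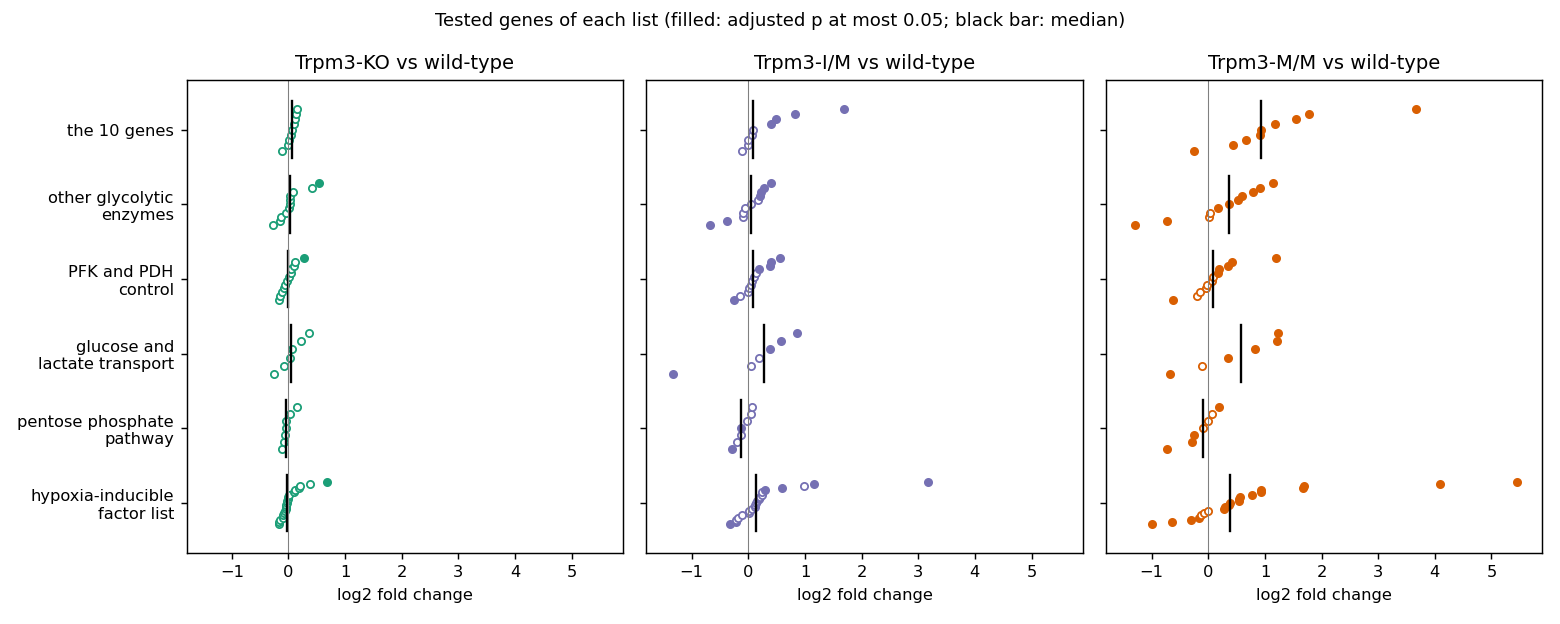
Log2 fold change against wild-type of each tested gene in the 10-gene set and in 5 further lists, for KO, I/M and M/M lenses. Filled points have an adjusted p of at most 0.05 and black bars are medians. In M/M lenses the median is 0.93 for the 10-gene set, 0.39 for the hypoxia-inducible factor list and -0.10 for the pentose phosphate list, whose median becomes positive with library size only.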

How the data were processed

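Lens polyA RNA at P7 was sequenced in 12 libraries, 3 for each of 4 genotypes, which were assigned from the sample labels. Per the methods, the authors aligned and quantified reads with DRAGEN against the Ensembl release 101 assembly (mm10). The values deposited by the authors are estimated counts per gene, not normalized (88.4% were whole), and were rounded before fitting, because whole counts had been assumed. Depth was 56162182 to 82090262 counts per library. The authors' second table repeats these counts for 9470 genes, equal in every library, beside their CPM, log2 fold changes and p-values, which were not used. A pair of count columns carry a trailing letter c and were matched to their titles.

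Counts were scaled with TMM factors and fitted over all 12 libraries with genotype as the only factor in edgeR 4.0.16 (R 4.3.3) by the quasi-likelihood test, on the 8984 genes that reached 5 CPM, by library size before TMM scaling, in 3 or more libraries. Adjusted p-values are Benjamini–Hochberg values over all genes tested in a comparison. SE is the log2 fold change divided by the square root of F. Shares used counts per kilobase of merged exons (GENCODE M21, GRCm38) and exact two-sided permutation tests. DESeq2 1.42.0 was an alternative. List counts without genes that passed only through M/M libraries, with a filter of 1 CPM, and list and isozyme values without I/M replicate 3 were added after seeing the data. No replicate pair was alike within sampling noise, and the fit was tested on simulated counts.

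The 10 genes, the lists and the motifs were chosen with earlier results of these data known. Named genes were the 10, their isozymes, list genes past both thresholds against wild-type or otherwise the 2 largest changes in M/M, and retrocopies by count. Genes named beyond that rule are marked as such. Some genes of the lists and isozyme sums are not reported here. Protein sequences were not used here. Figures were drawn with Python 3.11.15 and matplotlib 3.10.9.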

Additional observations from a re-analysis of the deposited data

How the results depend on the processing

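With library size only in place of TMM factors, *Hk2* changed direction against wild-type in M/M (0.26) and I/M lenses (0.19) and between these 2 (0.073), as did *Pkm* in I/M lenses (0.20) and, without passing in either scaling, *Pdk1* in I/M (0.09) and *Pgk1* in KO lenses (0.04). Under it 7 genes passed both thresholds in M/M, 8 passed the adjusted p and 2 passed both in I/M, and 6 passed both between M/M and I/M lenses. Of all genes, 87.5%, 55.8% and 75.8% then passed the adjusted p in these comparisons, in that order. The share of all genes past both thresholds under it is not given. With only the 2 genotypes compared, 0 genes passed both thresholds in I/M lenses, since *Pfkp* was no longer tested. With each library left out in turn, that count ran from 0 to 1 (0 without any M/M library, again through *Pfkp*), and the count between M/M and I/M lenses from 0 to 3. In the other settings that tested it, no called gene lost its call. A fold of 2 between M/M and I/M lenses therefore rests on few libraries for *Pgk1* and *Pdk1*. Shares from counts not divided by length differed from wild-type by 0.583 (*Ldha*), -31.2 (*Hk2*), 13.6 (*Pfkp*) and 17.4 (*Pdk1*) percentage points in M/M and by -11.3 (*Hk2*) and 3.07 (*Pfkp*) in I/M lenses, in the same direction. By such counts *Hk2* made up 47.4% of both hexokinase transcripts in M/M libraries, against 56.3% per kilobase, so which of them is larger there depends on the length.

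The replicate numbers did not pair the libraries: 2 of 18 same-numbered pairs had a correlation of deviations over 0.1. With the replicate number as a block (replicate block), 9 genes passed in M/M, 4 in I/M and none (0) in KO lenses, as without it. Of all genes, 61.4%, 30% and 3.8% passed with the block, in that order and both directions together. The depth limits *Ldhb* most, at 0.922 to 1.70 CPM. In alternatives added after seeing the data, with a filter of 1 CPM the pentose phosphate list had 0 genes higher and 5 lower of 8 in M/M lenses and the phosphofructokinase and pyruvate dehydrogenase control list 4 higher and 3 lower of 16. With that filter 60.7% of all genes passed in M/M lenses, both directions together.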

Other observations

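Of 7 tested pentose phosphate pathway genes, the branch that leaves glycolysis at its first product and supplies reducing power against oxidation in the lens, 3 were lower, 1 was higher and 3 did not pass in M/M lenses (median log2 fold change -0.10), beside 31.4% of all genes in each direction. *Tkt*, the transketolase gene, was at 264 CPM against 438 CPM in wild-type lenses (log2 -0.73 ± 0.05, adjusted p = 4.92e-08 by edgeR, and -0.22 with library size only). *Pgls*, the phosphogluconolactonase gene, gave -0.30 ± 0.06 (adjusted p = 0.000839) but turned to 0.22 with library size only. With library size only, which moved the median of all genes up by 0.50, 6 of the 7 genes were higher and 1 was lower, beside 87.5% of all genes passing in either direction. With upper-quartile factors or with TMM factors computed without crystallin genes 4 and 3 were lower and 1 was higher. In I/M lenses 2 were lower (1 without I/M replicate 3), beside 15.3% of all genes. In KO lenses none of the 7 passed, beside 2.16% of all genes higher and 2.2% lower.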
